A study of Ovis aries with 41 samples.

Results

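The genes described here are those of the semaphorin and ephrin guidance systems, namely the semaphorins, their plexin and neuropilin receptors, the ephrins and their Eph receptors. They were taken as every gene of the count table whose symbol begins with SEMA, PLXN, EFNA, EFNB, EPHA or EPHB, followed by a number or a letter, together with NRP1 and NRP2. This gave 53 of the 31182 genes in the table. They comprise 7 secreted semaphorins (SEMA3A to SEMA3G), 13 semaphorins attached to the membrane (SEMA4, SEMA5, SEMA6 and SEMA7A), 9 plexins, 2 neuropilins, 5 ephrin-A genes, 3 ephrin-B genes, 9 EphA and 5 EphB receptors. RNA was measured in tail skin of adult rams of the Improved Jezersko-Solčava breed. The rams were homozygous for 1 of 2 natural HOXB13 promoter alleles, told apart by an insertion. Ancestral homozygotes (A/A, 4 rams, short tails) and derived homozygotes (D/D, 3 rams, long tails) were sampled after death at the tail base, the mid-tail and the tail tip. The same rams gave all 3 positions, and in the long-tailed D/D rams the distance from base to tip was greater.

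Semaphorins bind plexins on neighbouring cells, the secreted SEMA3 proteins mostly with a neuropilin as the binding partner, and the plexin then loosens the adhesion and the cytoskeleton of the receiving cell. Ephrins sit on the cell surface, ephrin-A by a lipid anchor and ephrin-B by a membrane span, and they signal on contact in both directions with Eph receptor tyrosine kinases. Both systems are known for steering axons and vessels and for setting tissue boundaries, and in skin they are known from nerves, vessels, the epidermis and hair follicles.

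The 41 libraries held 9177395 to 23431409 counts. There were 2 libraries for every ram at every position, apart from ram 871869 (D/D), which had 1 at the mid-tail, and these were added up to 21 ram sums. Levels are CPM, the counts of a gene per 1e6 counts of the ram sum after scaling with TMM, a normalization for differences in library composition. Libraries of the same ram and position correlated with r = 0.944 to 0.989 (median 0.981) on the log scale across genes. Libraries of different rams in a group had a median r of 0.963. HOXB13 itself was at 3.44 to 6.43 CPM at the tip of A/A rams and at 0.264 to 1.09 CPM at the tip of D/D rams. The skin label was checked with marker genes. The 5 counted keratinocyte markers summed to 12345 to 42008 CPM and the 6 fibroblast markers to 3144 to 21154 CPM, whereas the 5 counted skeletal muscle markers summed to 7.65 to 28.5 CPM, with MYH1 at 0 in 7 of the 21 ram sums. The A/A ram 835507 stood apart in its distal samples. Its wool follicle markers summed to 10130 CPM at the base, 2424 CPM at the mid-tail and 787.7 CPM at the tip, against 9573 to 26180 CPM at these distal positions in the other 6 rams. Among the named results that were refitted without this ram, the value without it is given where it changed a call or moved a log2 value by over 1.5 times.

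Of the 53 genes, 48 were counted in every library. EPHA5, EPHA6, EPHA8, EPHA10 and PLXNB3 had at least 1 library with no count, and their totals over all libraries were 141, 119, 344, 173 and 381 counts. The filter on low counts passed all 53 in the comparisons of positions. EPHA5, EPHA6 and EPHA10 did not pass it for the comparison of genotypes at the base and at the tip, nor EPHA5 and EPHA6 at the mid-tail, which left 50, 51 and 50 genes at the base, mid-tail and tip. By the RefSeq annotation of ARS-UI_Ramb_v3.0, the 53 genes lie on 18 chromosomes. There were 9 neighbouring pairs less than 1000 kb apart, among them EFNA4, EFNA3 and EFNA1 in a row on chromosome 1, SEMA3B and SEMA3F on chromosome 19, and SEMA3D, SEMA3A and SEMA3E in a row on chromosome 4. Rams of the same genotype and position varied with a standard deviation of 0.197 (EFNA5) to 1.02 (PLXNA4) on the log2 scale, with a median over the 53 genes of 0.402.

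Tail tip and base were compared first, within rams, to ask which guidance genes follow the position along the tail. NRP2, the neuropilin that binds SEMA3F and VEGF-C, fell toward the tip, and SEMA6D, a membrane semaphorin that binds plexin A1, rose. In edgeR on ram sums no other guidance gene passed an adjusted p of 0.05, so that the called share was 2 of 53 genes, whereas 4.52% of all 19444 genes tested were called. DESeq2 on the same sums also called EFNA2, EPHA8 and SEMA5B, which made 5 of 53 genes (9.43%) beside 7.69% of all genes, and limma-voom called NRP2 alone (1.89%) beside 4.69%. With single libraries and the ram as block, 10 of 52 genes (19.2%) were called in edgeR beside 12.2% of all genes, and 10 in DESeq2 beside 14.3%. Fits on single libraries, here and below, take the libraries of a ram and position as separate replicates. Their p-values therefore do not rest on rams alone as replicates and can come out too small. The calls below are those of edgeR on ram sums unless another tool is named. An unadjusted p under 0.05 was reached by 13 of the 53 genes (24.5%), beside 18.3% of all genes. Of these 13, 5 were higher and 8 lower at the tip. The median log2 fold change of the 53 genes was -0.00052 and that of all genes -0.02, and 43 of the 53 lay within 0.5 of no change. NRP2 and EPHB6 had the same direction in all 7 rams, that is 2 of 53 genes, beside 7.18% of all genes. At the tip over the base, all 4 A/A rams agreed in direction for 22.6% of the guidance genes, beside 20.5% of all genes. All 3 D/D rams agreed there for 24.5%, beside 41.2% of all genes. At the mid-tail over the base it was 7.55% beside 13.1% in A/A rams and 30.2% beside 37.4% in D/D rams. As these are counts from bulk skin, fewer cells of a type and less RNA per cell cannot be told apart.

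**Figure D1:**
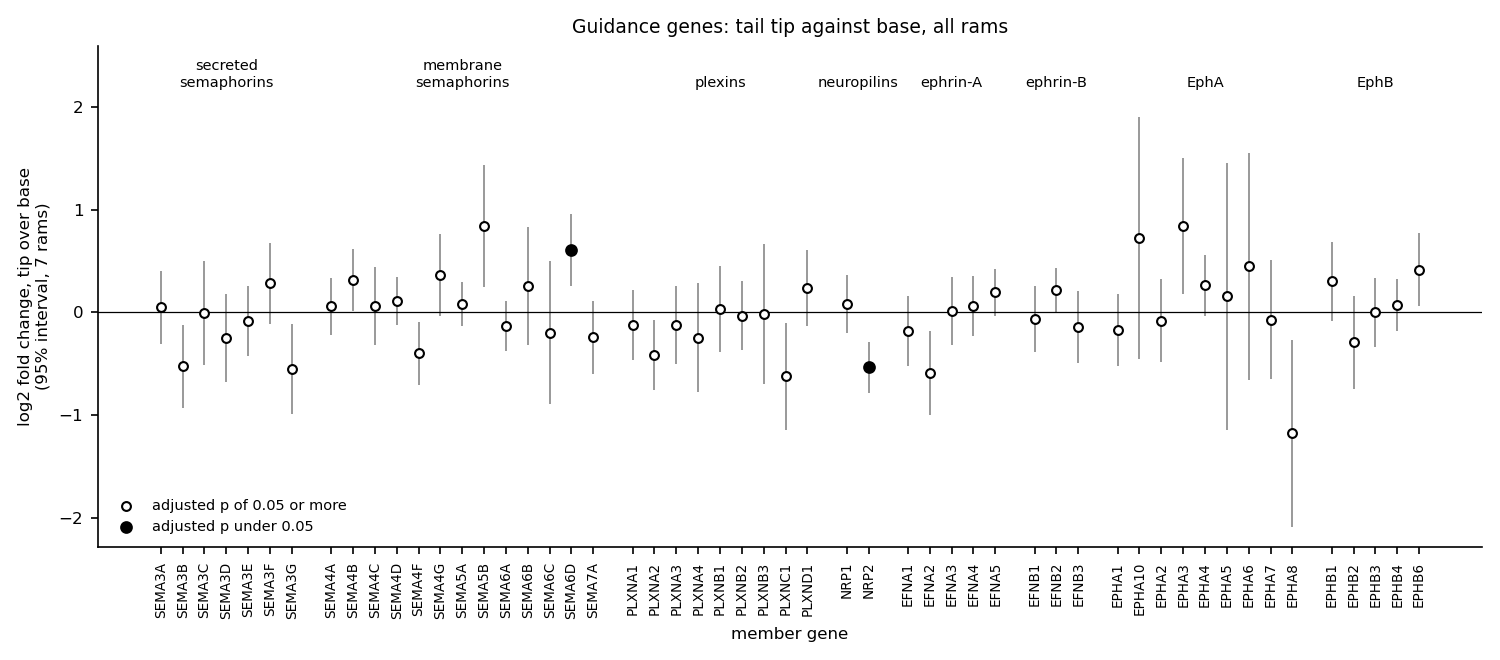
Log2 fold change of the tail tip over the base for the 53 guidance genes, grouped by role, with 95% intervals from the fit over all 7 rams. Filled points passed an adjusted p of 0.05, which were NRP2 below 0 and SEMA6D above 0, and 43 of the 53 points lie between -0.5 and 0.5.

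The secreted semaphorins, the diffusible ligands of the family, held no gene that passed the test between tip and base in edgeR on ram sums, whereas single libraries called SEMA3B (adjusted p = 0.0482 in edgeR and 0.0254 in DESeq2) and SEMA3G (0.0147 and 0.00393). Of 7 genes, 2 were higher and 5 lower at the tip, with log2 fold changes from -0.55 (SEMA3G) to 0.28 (SEMA3F). SEMA3F, a ligand of NRP2 and the member with the highest mean CPM in this class, was at 67.2 ± 15.2 CPM at the base and 83.0 ± 22.4 CPM at the tip (SD, n = 7; log2 fold change 0.28 ± 0.19 SE, adjusted p = 0.464). In the D/D rams taken alone, 6 of the 7 had a negative log2 fold change, with a median of -0.46 beside -0.01 over all genes. SEMA3B went from 28.3 ± 7.57 to 16.3 ± 2.35 CPM there (SD, n = 3; log2 fold change -0.80 ± 0.29 SE, adjusted p = 0.239).

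SEMA3G, a secreted semaphorin that binds NRP2, was at 10.7, 14.4, 8.99 and 19.6 CPM at the base of the A/A rams 835507, 871772, 871784 and 871932, the order used for A/A rams from here on. The mid-tail of these rams had 19.8, 15.3, 7.48 and 18.8 CPM, and the tip 20.4, 7.92, 8.05 and 8.28 CPM. Ram 835507 thus kept a high level at the tip, where the other 3 A/A rams lay close together. In the D/D rams 871787, 871868 and 871869, again the order used below, SEMA3G was at 12.8, 15.7 and 8.44 CPM at the base. It was at 7.46, 5.77 and 6.59 CPM at the mid-tail and at 7.65, 6.89 and 6.97 CPM at the tip. Every D/D ram was lower at both distal positions than at its own base. The log2 fold change over the base in D/D rams was -0.78 ± 0.31 (SE) at the tip, with an adjusted p of 0.299, and -0.87 ± 0.32 at the mid-tail, with an adjusted p of 0.653. Over all 7 rams it was -0.55 ± 0.21 at the tip (adjusted p = 0.159). Without ram 835507 it was -0.75 and passed the test (adjusted p = 0.0228).

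SEMA3E, which binds plexin D1 without a neuropilin and is known for repelling growing vessels, was at 30.3, 39.9, 49.9 and 26.1 CPM at the base of A/A rams. These rams had 40.9, 41.6, 70.7 and 31.7 CPM at the mid-tail and 62.4, 36.2, 36.6 and 41.3 CPM at the tip. The D/D rams had 32.8, 30.1 and 33.0 CPM at the base, 25.0, 31.4 and 35.6 CPM at the mid-tail and 19.3, 26.5 and 24.2 CPM at the tip. At the tip every D/D ram lay below every A/A ram, whereas at the base the groups overlapped. The log2 fold change of tip over base was 0.32 in A/A rams and -0.50 in D/D rams. The difference between these, tested as an interaction, was -0.81 ± 0.32 (SE) for D/D minus A/A, with an unadjusted p of 0.023 and an adjusted p of 0.789.

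Among the 13 membrane semaphorins, which signal by contact or after shedding, SEMA6D passed the test at the tip in edgeR on ram sums and 12 genes did not. DESeq2 on ram sums also called SEMA5B (adjusted p = 0.0442), and single libraries called SEMA5B and SEMA4F in both tools. Of the 13, 9 were higher and 4 lower at the tip, with log2 fold changes from -0.40 (SEMA4F) to 0.84 (SEMA5B). SEMA5A, the member with the highest mean CPM in this class, was at 56.0 ± 7.41 CPM at the base and 59.5 ± 8.47 CPM at the tip (SD, n = 7), with a 95% interval for its log2 fold change of -0.13 to 0.30.

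SEMA6D, on chromosome 7 from 60775533 to 61421430 of ARS-UI_Ramb_v3.0, was at 24.5, 13.5, 11.6 and 6.36 CPM at the base of A/A rams. The mid-tail had 40.9, 18.4, 19.0 and 12.5 CPM in these rams, and the tip 40.6, 22.9, 16.3 and 24.2 CPM. Both distal positions were above the base in each A/A ram, and ram 835507 was the highest at every position. In D/D rams SEMA6D was at 10.6, 9.11 and 10.7 CPM at the base, 13.0, 12.8 and 11.5 CPM at the mid-tail and 14.5, 14.5 and 8.02 CPM at the tip. The mid-tail was above the base in each D/D ram, but at the tip ram 871869 was below its base. SEMA6D rose at the tip over all 7 rams by 0.60 ± 0.16 on the log2 scale (SE), which is 1.52-fold (adjusted p = 0.0492, higher in 6 of 7 rams). The mid-tail had a log2 fold change of 0.50 ± 0.16 over the base, higher in 7 of 7 rams, with an adjusted p of 0.265. The call at the tip lay close to the threshold and was lost in 9 of 16 alternatives. Leaving out 1 ram gave adjusted p-values of 0.0587 without 835507, 0.0601 without 871772, 0.120 without 871932, 0.232 without 871787 and 0.266 without 871868, with log2 fold changes from 0.44 to 0.65. The other alternatives that lost it were limma-voom, library totals, a filter at 1 CPM and the model without the ram. Beside this rise, the summed keratinocyte markers were higher at the tip in 6 of 7 rams, at 12340 to 24980 CPM at the base and 18130 to 42010 CPM at the tip, and KRT1 rose among the 5 counted. The pericyte marker RGS5 rose as well, while its list of 6 smooth muscle and pericyte markers had a higher sum at the tip in 3 of 7 rams. The summed sebaceous gland markers were higher at the tip in 6 of 7 rams too, although FADS2 fell among the 6. The part of these shifts in the change of SEMA6D was not tested.

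SEMA4F, a membrane semaphorin known from neurons and Schwann cells, was at 5.18, 4.96, 7.60 and 5.79 CPM at the base of A/A rams, 5.17, 8.94, 5.87 and 6.46 CPM at the mid-tail and 4.29, 6.12, 6.63 and 4.26 CPM at the tip. The D/D rams had 6.41, 6.30 and 5.89 CPM at the base, 5.82, 4.67 and 4.58 CPM at the mid-tail and 3.95, 3.66 and 4.52 CPM at the tip. All 3 D/D rams had less at the mid-tail and least at the tip, whereas the A/A rams went in both directions. The tip over base change in D/D rams was -0.64 ± 0.22 (SE) on the log2 scale, with an adjusted p of 0.205.

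SEMA5B, which carries thrombospondin repeats, went from 1.08 ± 0.356 CPM at the base to 2.02 ± 0.877 CPM at the tip (SD, n = 7), with a log2 fold change of 0.84 ± 0.28 (SE) and an adjusted p of 0.108. SEMA7A, a lipid-anchored semaphorin that binds plexin C1 and integrins, was lower at the tip in all 4 A/A rams, from 8.24 ± 3.18 to 5.29 ± 0.560 CPM (SD, n = 4), with a log2 fold change of -0.57 ± 0.22 (SE) and an adjusted p of 0.234.

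Plexins are the signalling receptors of the semaphorins, and none of the 9 passed the test between tip and base in edgeR on ram sums. PLXNC1 was called with single libraries (adjusted p = 0.0399 in edgeR and 0.0192 in DESeq2), and PLXNA2 without ram 871772 (0.0441). Of the 9, 2 were higher and 7 lower at the tip, with a median log2 fold change of -0.12. PLXNB2, the receptor with the highest mean CPM in this class and a partner of SEMA4C, was at 147 ± 37.5 CPM at the base and 146 ± 20.0 CPM at the tip (SD, n = 7), and the 95% interval of its log2 fold change was -0.37 to 0.30. PLXNA2, a receptor that pairs with neuropilins and also binds SEMA6A, was lower at the tip in 4 of 4 A/A rams, from 73.2 ± 23.7 to 50.1 ± 20.1 CPM (SD, n = 4; log2 fold change -0.60 ± 0.21 SE, adjusted p = 0.190). PLXNC1, the plexin that binds SEMA7A, had a log2 fold change of -0.62 ± 0.25 (SE) at the tip over all rams, with an adjusted p of 0.180. PLXND1, the receptor of SEMA3E, had log2 fold changes of 0.48 ± 0.23 (SE) in A/A rams and -0.01 ± 0.26 in D/D rams. The widest spread was that of PLXNA4, at 36.5 CPM at the mid-tail and 23.8 CPM at the tip of the A/A ram 835507 against 2.21 to 5.84 CPM at these positions in the other 6 rams.

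The neuropilins, the co-receptors for secreted semaphorins and VEGF, went separate ways. NRP2, on chromosome 2 from 207831207 to 207957884 of ARS-UI_Ramb_v3.0, was at 96.5, 105, 149 and 164 CPM at the base of A/A rams, 66.5, 56.5, 135 and 69.6 CPM at their mid-tail and 49.5, 68.6, 109.7 and 89.5 CPM at their tip. The D/D rams had 99.3, 117 and 139 CPM at the base, 93.2, 105 and 119.6 CPM at the mid-tail and 74.6, 99.5 and 111 CPM at the tip. Each of the 7 rams was lower at both distal positions than at its own base, although the ranges of the positions overlapped between rams. NRP2 fell at the tip by 0.54 ± 0.12 on the log2 scale (SE), to 0.689-fold (adjusted p = 0.0158, lower in 7 of 7 rams). Its mid-tail level gave a log2 fold change of -0.42 ± 0.12, lower in 7 of 7 rams, with an adjusted p of 0.184. Between mid-tail and tip it was -0.12 ± 0.12, lower in 5 of 7 rams. NRP1, which binds SEMA3A and VEGF-A, was at 77.1 ± 20.2 CPM at the base and 81.5 ± 13.0 CPM at the tip (SD, n = 7), with a 95% interval of -0.20 to 0.37 for its log2 fold change.

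The fall of NRP2 was called in 12 of 16 alternatives. It was lost without the ram in the model (adjusted p = 0.340) and when a D/D ram was left out (adjusted p = 0.102 without 871787, 0.0672 without 871868 and 0.0745 without 871869), at log2 fold changes of -0.52 to -0.56. Without ram 835507 it was called, at -0.50 with an adjusted p of 0.0290. Marker genes of other cell types moved at the tip as well. The summed fibroblast markers were lower at the tip in 7 of 7 rams, at 12860 to 21150 CPM at the base of A/A rams, 3144 to 12800 CPM at their tip, 10110 to 17080 CPM at the base of D/D rams and 5928 to 13200 CPM at their tip, and COL1A1 and COL3A1 fell among the 6. The summed immune markers were also lower at the tip in 7 of 7 rams, with CD14 and CSF1R falling and CD68 at 0 throughout, and the summed sweat gland markers likewise, with KRT8, KRT18 and KRT19 falling among 4 counted. The endothelial markers had no called gene among 6, and their sum was higher at the tip in 2 of 7 rams. The part of these shifts in the change of NRP2 was not tested.

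**Figure D2:**
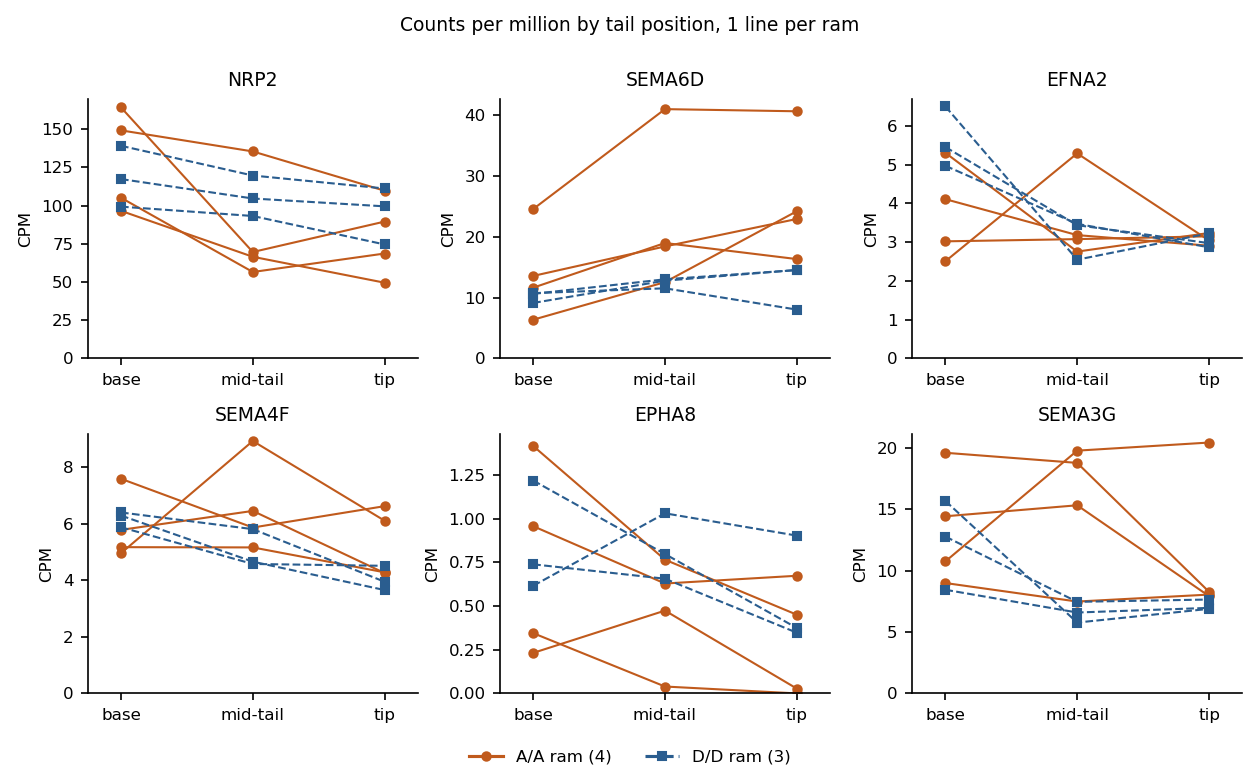
CPM of 6 guidance genes along the tail (base, mid-tail, tip), where each line is a ram, solid with circles for the 4 A/A rams and dashed with squares for the 3 D/D rams. The NRP2 lines of all 7 rams end below where they start, 6 of 7 SEMA6D lines end above, and the EFNA2, SEMA4F and SEMA3G lines of all 3 D/D rams end below their base.

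Of the 5 ephrin-A genes none passed the test at the tip in edgeR on ram sums, with 3 higher and 2 lower. EFNA5, the ligand with the highest mean CPM in this class, was at 79.2 ± 14.8 CPM at the base and 91.1 ± 7.41 CPM at the tip (SD, n = 7; log2 fold change 0.19 ± 0.11 SE, adjusted p = 0.371). EFNA2 was at 3.02, 2.51, 4.11 and 5.30 CPM at the base of A/A rams, 3.08, 5.29, 3.18 and 2.76 CPM at their mid-tail and 3.15, 3.04, 2.91 and 3.24 CPM at their tip. D/D rams had 4.97, 6.5 and 5.45 CPM at the base, 3.47, 2.55 and 3.44 CPM at the mid-tail and 2.87, 3.23 and 2.97 CPM at the tip. At the tip all 7 rams lay within a narrow range, whereas the base was spread, with the D/D rams in its upper part and all of them higher there than at their distal positions. The log2 fold change at the tip was -0.92 ± 0.29 (SE) in D/D rams, with an adjusted p of 0.166, and -0.27 in A/A rams. Over all rams it was -0.59 ± 0.19 (SE), lower in 5 of 7 rams, with an adjusted p of 0.0947. It passed the test without ram 871772, at -0.67 with an adjusted p of 0.0357, and at about the same size in DESeq2 on ram sums (adjusted p = 0.0408) and with single libraries in edgeR (0.00957) and DESeq2 (0.00213). The interaction of genotype and tip was -0.66 ± 0.38 (SE), with an adjusted p of 0.789.

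The 3 ephrin-B genes differed little between positions, with log2 fold changes at the tip from -0.15 (EFNB3) to 0.22 (EFNB2) and no call. EFNB2, known as a mark of arterial endothelium and the ligand with the highest mean CPM in this class, was at 131 ± 28.1 CPM at the base, 151 ± 27.7 CPM at the mid-tail and 151 ± 18.4 CPM at the tip (SD, n = 7), higher at the tip in 6 of 7 rams, with an adjusted p of 0.277.

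The 9 EphA receptors held no called gene in edgeR on ram sums, and the widest range of estimates, from -1.18 (EPHA8) to 0.84 (EPHA3) at the tip over all rams. EPHA1, a receptor of the epidermis with the highest mean CPM in this class, was at 63.8 ± 21 CPM at the base and 56.2 ± 10.9 CPM at the tip (SD, n = 7; adjusted p = 0.640). EPHA3, known from motor axons and mesenchyme, was higher at both distal positions in 3 of 3 D/D rams, from 3.65 ± 1.24 CPM at the base to 8.01 ± 0.773 CPM at the mid-tail (SD, n = 3; log2 fold change 1.18 ± 0.47 SE, adjusted p = 0.688).

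EPHA8, a receptor known from the nervous system, was at the low end of what the libraries could count. It was at 0.345, 0.232, 0.958 and 1.42 CPM at the base of A/A rams, 0.0395, 0.474, 0.629 and 0.766 CPM at the mid-tail and 0, 0.0274, 0.674 and 0.451 CPM at the tip. All 4 A/A rams were lower at the tip than at the base, and 2 of them were at or near 0 there. EPHA8 in the D/D rams was at 0.739, 1.22 and 0.616 CPM at the base, 0.657, 0.798 and 1.03 CPM at the mid-tail and 0.348, 0.375 and 0.904 CPM at the tip. The log2 fold change of tip over base in A/A rams was -1.61 ± 0.60 (SE), with a 95% interval of -2.89 to -0.34 and an adjusted p of 0.218. Over all rams it was -1.18 in edgeR, and EPHA8 was called by DESeq2 on ram sums (adjusted p = 0.0407) and, like EPHA3, by single libraries in both tools.

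The 5 EphB receptors were likewise without a call. EPHB6, which lacks kinase activity and has the highest mean CPM in this class, was higher at the tip in 7 of 7 rams, at 46.2 ± 13.3 CPM at the base and 62.2 ± 14.9 CPM at the tip (SD, n = 7; log2 fold change 0.41 ± 0.17 SE, adjusted p = 0.195). EPHB4, the receptor of ephrin-B2 known from veins, had a log2 fold change of 0.07 ± 0.12 (SE), with a 95% interval of -0.18 to 0.33.

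The mid-tail was compared with the base and with the tip to see where along the tail the differences lay. Between mid-tail and base, 0 of 53 guidance genes passed the adjusted p in edgeR on ram sums, beside 0.134% of all genes, and 5 had an unadjusted p under 0.05 (9.43%), beside 11.1% of all genes. These were NRP2, SEMA6D, EPHA3, EFNA2 and EFNB2. DESeq2 and limma-voom on the ram sums called 0, edgeR on single libraries called NRP2, and DESeq2 on single libraries called NRP2, SEMA6D and EPHA3. Between tip and mid-tail, edgeR, DESeq2 and limma-voom called 0 of 53, also on single libraries where run, beside 0.0257% of all genes in edgeR. SEMA4F was the 1 gene with an unadjusted p under 0.05 there (1.89%, beside 5.37% of all genes), at a log2 fold change of -0.34. EPHA8 followed, at -0.85 ± 0.43 (SE), lower at the tip in 6 of 7 rams.

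Within A/A rams, NRP2 and SEMA6D again passed the test between tip and base, 2 of 53 genes, beside 1.63% of all genes. NRP2 fell by 0.72 ± 0.15 on the log2 scale (SE; adjusted p = 0.0283, 4 of 4 rams). SEMA6D rose by 0.98 ± 0.22 (SE; adjusted p = 0.0330, 4 of 4 rams), which is 1.98-fold. An unadjusted p under 0.05 was reached by 9 genes (17.0%), beside 14.4% of all genes. Both calls were lost in the A/A rams fitted on their own (adjusted p = 0.135 for NRP2 and 0.0893 for SEMA6D) and without ram 835507 (0.0956 and 0.0657), 871772 (0.0595 and 0.0699), 871932 (0.124 and 0.205), 871787 (0.0618 and 0.0639) or 871868 (0.0618 and 0.0554). The call of NRP2 was also lost without ram 871869 (0.0580). The log2 fold changes lay between -0.81 and -0.64 for NRP2 and between 0.67 and 1.14 for SEMA6D in all 17 alternatives.

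Within D/D rams, 0 of 53 genes passed between tip and base in edgeR, beside 0.566% of all genes, and 5 had an unadjusted p under 0.05 (9.43%), beside 12.3% of all genes. These 5 were EFNA2, SEMA4F, SEMA3B, SEMA3G and EPHA3. DESeq2 and limma-voom on ram sums called 0. Single libraries gave 2 of 52 in edgeR (EFNA2 and SEMA3G; 3.85% beside 5.33% of all genes) and 4 in DESeq2 (7.69% beside 7.02%). The D/D rams fitted on their own gave 3 of 50 (EFNA2, SEMA3B and SEMA3G), which is 6% beside 4.61% of all genes. NRP2 had a log2 fold change of -0.35 ± 0.18 (SE) in D/D rams, lower in 3 of 3, and SEMA6D one of 0.22 ± 0.25, higher in 2 of 3.

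At the mid-tail the A/A rams gave 0 called guidance genes in edgeR, beside 0.0257% of all genes, and 5 with an unadjusted p under 0.05 (9.43%), beside 10.1% of all genes. DESeq2 on ram sums called NRP2, limma-voom called 0, and single libraries gave NRP2 and SEMA6D in both tools. NRP2 had a log2 fold change of -0.68 ± 0.15 (SE) and SEMA6D one of 0.71 ± 0.21, each in the same direction in 4 of 4 rams. PLXND1 had 0.54 ± 0.23 (SE), higher in 3 of 4 rams, with 0.27 without ram 871772, 0.88 without 871784 and 0.45 without 835507. EPHA10, an Eph receptor without kinase activity, had 1.45 ± 0.64 on the same scale from 0.167 ± 0.106 and 0.456 ± 0.246 CPM (SD, n = 4). The D/D rams gave 0 called genes, beside 0% of all genes, and 4 with an unadjusted p under 0.05 (7.55%), beside 6.74% of all genes. DESeq2 and limma-voom on ram sums and edgeR on single libraries called 0 there, and DESeq2 on single libraries called SEMA3G. EFNA2 had the smallest p of the guidance genes there, at -0.84 ± 0.29 (SE) and lower in 3 of 3 rams.

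Whether the changes along the tail differed between genotypes was tested as an interaction. For the tip, 0 of 53 genes passed in edgeR, beside 0% of all genes, and 3 had an unadjusted p under 0.05 (5.66%), beside 6.11% of all genes. For the mid-tail it was 0 of 53, beside 0% of all genes, with 4 at an unadjusted p under 0.05 (7.55%), beside 5.21% of all genes. DESeq2 and limma-voom called 0 in both, also on single libraries where run. Thus the calls of NRP2 and SEMA6D in A/A rams were not shown to differ from D/D rams. The interaction of NRP2 was 0.37 ± 0.23 (SE) at the tip with a 95% interval of -0.12 to 0.87, and 0.53 ± 0.23 (0.03 to 1.02) for the mid-tail, as D/D minus A/A on the log2 scale, with adjusted p-values of 0.792 and 0.884. That of SEMA6D at the tip was -0.76 ± 0.33 (SE; adjusted p = 0.789). SEMA7A had 0.65 ± 0.33 (SE) there, and EPHA5, with no count in 12 of the 41 libraries, had -2.36 ± 1.11 with A/A means of 0.137 CPM at the base and 0.386 CPM at the tip and D/D means of 0.138 and 0.0752 CPM. SEMA3G had -1.01 ± 0.41 (SE) and SEMA3B -0.83 ± 0.38 at the mid-tail, both with an adjusted p of 0.884. With library totals in place of TMM, the median of all genes in the interaction at the tip shifted by -0.125, so that its smaller values depend on the scaling.

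**Figure D3:**
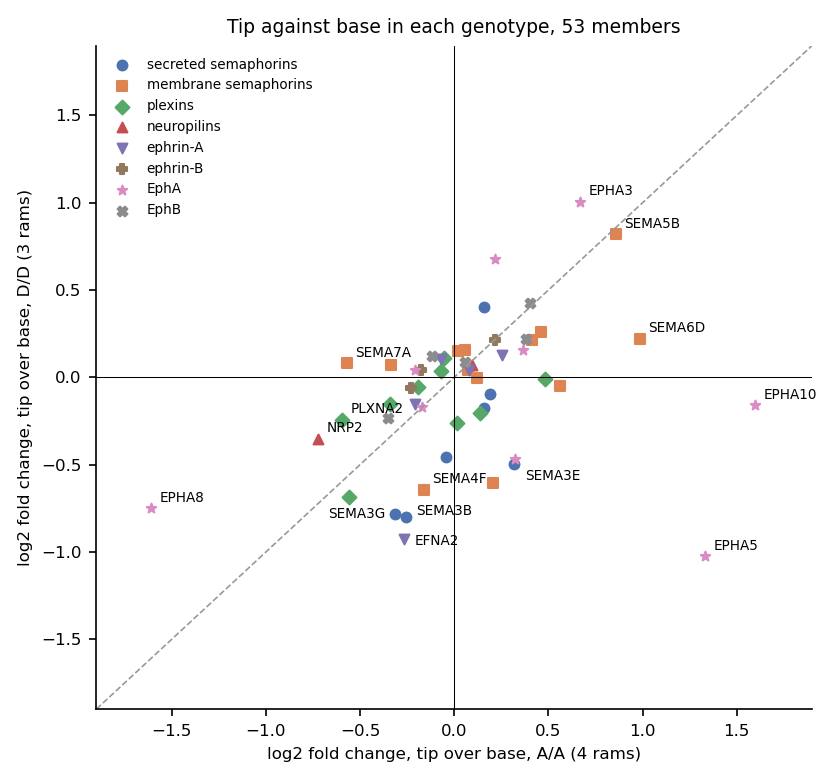
Log2 fold change of the tail tip over the base in the 4 A/A rams (horizontal axis) and in the 3 D/D rams (vertical axis) for the 53 guidance genes, with a symbol for each role and a dashed line where both are equal. NRP2 lies below 0 on both axes, SEMA6D lies far right of the line, and EFNA2, SEMA3B and SEMA3G lie below it; no interaction passed an adjusted p of 0.05.

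EPHA7, a receptor of cell repulsion known from the nervous system, was named by the interaction at the mid-tail. It was at 3.54, 1.9, 2.07 and 1.05 CPM at the base of A/A rams, 6.35, 1.24, 3.29 and 2.05 CPM at the mid-tail and 5.16, 1.51, 2.41 and 2.01 CPM at the tip. In D/D rams it was at 2.55, 0.914 and 1.73 CPM at the base, 1.03, 1.57 and 0.401 CPM at the mid-tail and 1.91, 1.56 and 0.640 CPM at the tip. Ram 835507 was the highest at every position, and the genotypes overlapped at each. The interaction at the mid-tail was -1.31 ± 0.57 (SE) with an adjusted p of 0.884, and between -2.17 and -0.79 over 16 alternatives.

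A/A and D/D rams were then compared at each position, to ask whether the promoter allele goes with the level of a guidance gene. The paper reports higher HOXB13 in A/A than in D/D rams at the mid-tail and tip, and tests some selected genes there. For its wider RNA-seq results it holds that only the base allows a direct comparison of genotypes. The reason it gives is that the mid-tail and tip lie farther from the base in D/D rams. Genotype and distance along the tail cannot be told apart at the mid-tail and tip, nor in the interactions. At the base 0 of 50 genes passed in edgeR, beside 0% of all 17738 genes tested, and 0 had an unadjusted p under 0.05, beside 3.2% of all genes. No guidance gene had groups that did not overlap, beside 4.67% of all genes. At the mid-tail 0 of 51 genes passed, beside 0% of 17996 genes, and 3 had an unadjusted p under 0.05 (5.88%), beside 5.63% of all genes. The groups did not overlap for 2 of the 51, SEMA3G and EPHA3, beside 8.06% of all genes. At the tip 0 of 50 genes passed, beside 0% of 17842 genes, and 4 had an unadjusted p under 0.05 (8%), beside 10.2% of all genes. The groups did not overlap for 9 of the 50 (18%), beside 16.6% of all genes. DESeq2 and limma-voom called 0 guidance genes at each position.

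At the tip, SEMA3E, SEMA6D, SEMA3D and SEMA3G were higher in every A/A ram than in every D/D ram, and EPHB4, EFNA3, EFNA4, EFNB1 and SEMA7A were lower. Some margins were narrow. The closest A/A and D/D rams were at 7.92 and 7.65 CPM for SEMA3G and 71.1 and 71.4 CPM for EFNA3. They were at 19.2 and 19.8 CPM for EFNA4 and 6.01 and 6.14 CPM for SEMA7A. SEMA3E was at 44.1 ± 12.4 CPM in A/A rams and 23.3 ± 3.68 CPM in D/D rams (SD, n = 4 and 3), A/A over D/D at 0.99 ± 0.24 (SE) on the log2 scale, with an adjusted p of 0.458. It was 0.77 without ram 835507. SEMA6D was at 26 ± 10.3 and 12.4 ± 3.75 CPM, with a log2 fold change of 1.14 ± 0.35 (SE), or 0.83 without ram 835507. SEMA3D, a secreted semaphorin of vessel and nerve patterning, was at 21.5 ± 6.35 and 13.0 ± 3.06 CPM, with a log2 fold change of 0.80 ± 0.27 (SE), or 0.57 without ram 835507. The adjusted p of SEMA6D and SEMA3D was 0.458 as well. Over the 7 secreted semaphorins, 6 had a positive log2 fold change at the tip, and the median was 0.56 beside 0.02 over all genes. Beside this, the summed immune markers were at 43.9 to 87.1 CPM at the tip of A/A rams and 30.5 to 40.4 CPM in D/D rams. The summed Schwann cell markers were at 37.1 to 87.1 and 28.2 to 36.6 CPM. Both highest sums were those of ram 835507, and no marker of any list was called there. The sums of the other lists overlapped. Among these, the adipocyte markers had a median log2 fold change of 1.53, with sums of 559 to 793 CPM in A/A rams and 521 to 829 CPM in D/D rams. The part of these shifts was not tested.

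EPHB4 was at 35.7, 34.2, 36.3 and 47.7 CPM at the base of A/A rams, 37.6, 56.1, 27.3 and 47.5 CPM at the mid-tail and 36.7, 42.8, 37.5 and 42.5 CPM at the tip. In D/D rams it was at 48.6, 65.2 and 39.7 CPM at the base, 43.3, 46.4 and 45.8 CPM at the mid-tail and 53, 62.1 and 49.4 CPM at the tip. The D/D rams lay above the A/A rams at the tip, and the groups overlapped at the other positions. A/A over D/D gave a log2 fold change of -0.40 ± 0.12 (SE) at the tip, with an adjusted p of 0.458, and -0.38 ± 0.21 at the base, with an adjusted p of 1.00.

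SEMA6B, a membrane semaphorin that binds plexin A4, had the smallest p among the guidance genes at the base. It was at 0.604, 0.789, 0.865 and 1.05 CPM at the base of A/A rams, 1.26, 1.71, 0.664 and 1.19 CPM at the mid-tail and 2.08, 1.04, 0.780 and 1.27 CPM at the tip. In D/D rams it was at 1.03, 1.59 and 1.48 CPM at the base, 1.45, 0.982 and 1.60 CPM at the mid-tail and 0.782, 2.13 and 1.17 CPM at the tip. The groups overlapped at all 3 positions. A/A over D/D at the base gave a log2 fold change of -0.70 ± 0.37 (SE), with an unadjusted p of 0.0886. EFNA2 had -0.57 ± 0.31 (SE) at the base, and PLXND1 -0.29 ± 0.20 from 27.7 ± 4.89 CPM in A/A rams and 34.6 ± 5.51 CPM in D/D rams (SD, n = 4 and 3).

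At the mid-tail, SEMA3G was higher in every A/A ram, at 15.3 ± 5.57 CPM against 6.61 ± 0.844 CPM in D/D rams (SD, n = 4 and 3), a log2 fold change of 1.23 ± 0.35 (SE) with an adjusted p of 0.848. The closest rams of the genotypes were at 7.48 and 7.46 CPM. Leaving out each ram gave values within the range of 1.08 to 1.47 that all 14 alternatives covered. EPHA7 had 1.69 ± 0.64 (SE), SEMA6D 0.89 ± 0.38 and PLXNA4 1.72 ± 0.79 on the same scale. Without ram 835507 these were 1.10 for EPHA7, 0.42 for SEMA6D and 0.24 for PLXNA4, the lowest of the alternatives for each.

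**Figure D4:**
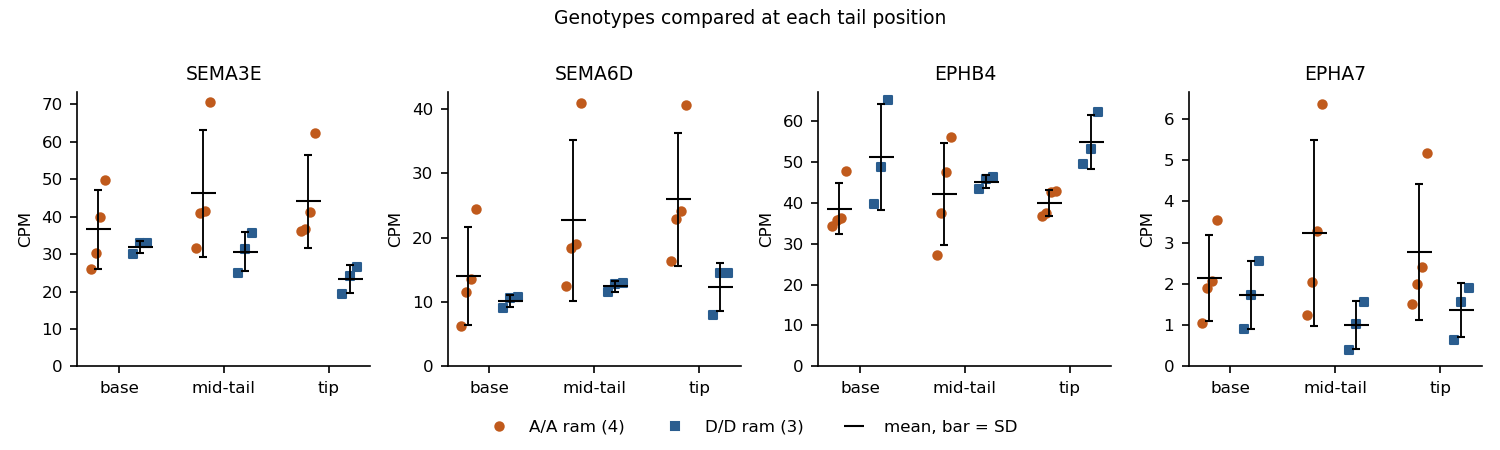
CPM of SEMA3E, SEMA6D, EPHB4 and EPHA7 at each tail position, with 1 point per ram (circles A/A, n = 4, squares D/D, n = 3) and the mean with its SD. At the tip the A/A points of SEMA3E and SEMA6D lie above all D/D points and those of EPHB4 below, whereas the EPHA7 groups overlap at each position.

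**Figure D5:**
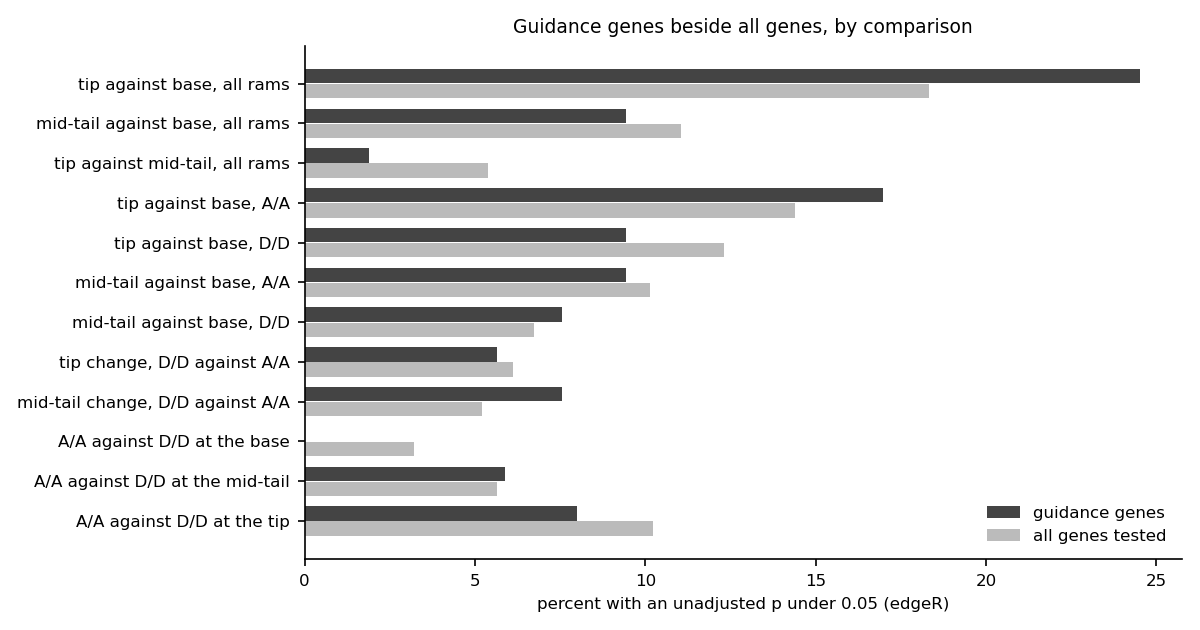
Percent of the guidance genes (dark bars) and of all genes tested (light bars) with an unadjusted p under 0.05 in edgeR, for the 12 comparisons. The guidance genes reached 24.5% beside 18.3% for tip against base over all rams and 0% beside 3.2% for the genotypes at the base.

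Genes around these systems were described from 2 lists of related genes. The other guidance families (Slit, Robo, netrin, DCC, UNC5, RGM and draxin) gave 20 tested genes. Of these 20, 2 rose and 1 fell at the tip over all rams in edgeR, beside 4.52% of all genes called. An unadjusted p under 0.05 was reached by 8 (40%), beside 18.3% of all genes, and the median log2 fold change was 0.02. DESeq2 and limma-voom were not read for this list. UNC5C, a repulsive netrin receptor, rose from 0.288 to 0.834 CPM over the 7 rams at the base to 1.20 to 2.99 CPM at the tip, by 1.74 ± 0.24 on the log2 scale (SE; adjusted p = 7.4e-04). ROBO2, a Slit receptor, rose by 1.00 ± 0.17 (SE; adjusted p = 0.00275) at the tip and by 0.90 ± 0.16 at the mid-tail (adjusted p = 0.0418). NTN4, a netrin of basement membranes, fell by 0.75 ± 0.15 (SE; adjusted p = 0.00846). UNC5C rose in each genotype taken alone, by 1.58 ± 0.31 (SE) in A/A rams and 1.91 ± 0.37 in D/D rams. In A/A rams ROBO2 also rose, and NTN4 and UNC5A, another netrin receptor, fell, beside 1.63% of all genes called. In D/D rams UNC5C was the 1 called gene of this list, beside 0.566% of all genes. ROBO2 and NTN4 went the same way there without a call, at 0.78 ± 0.25 (SE) and -0.66 ± 0.22. UNC5A was at -0.08 ± 0.27 (SE) in D/D rams. The interactions at the tip were not called (adjusted p = 0.819 for ROBO2, 0.923 for NTN4, 0.789 for UNC5A and 0.909 for UNC5C). Of 32 co-receptors and effectors of semaphorin, neuropilin and Eph signalling, such as the collapsin response mediator proteins and the MICAL enzymes, 0 passed at the tip in edgeR, for which DESeq2 and limma-voom were not read, 7 had an unadjusted p under 0.05 (21.9%, beside 18.3% of all genes), and the median log2 fold change was 0.05.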

How the data were processed

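Tail skin RNA of 7 rams was sequenced at 3 positions with the CORALL kit, after selection on oligo(dT) beads and with random-primed reverse transcription. The authors checked the reads with FastQC 0.11.9, mapped them to ARS-UI_Ramb_v3.0 with ContextMap 2 using BWA, and deposited strand-specific featureCounts read counts per RefSeq gene (its version is not given in the sources used here). The deposited counts of the tail tip were entered as estimated counts only for naming reasons. They were whole numbers, which rounding did not change. All 41 libraries entered, and libraries of the same ram and position were summed into 21 ram sums. The labels do not say whether the libraries of a ram came from separate biopsies, so rams, not libraries, were replicates in the main fits. In fits on ram sums, p-values of the genotype comparisons measure the spread between rams. With the ram as a block, those of the position comparisons and interactions on ram sums measure how far the change within a ram varied between rams. With single libraries, p-values rest in part on the spread between libraries of the same ram and position.

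Genes were filtered with filterByExpr (19444 genes for positions and 17738, 17996 and 17842 for genotypes at the base, mid-tail and tip), scaled by TMM, and compared in edgeR 4.0.16 (R 4.3.3) by its quasi-likelihood F-test. Position models held the ram as a block, since samples of a ram are paired by animal. Of the 21 same-ram pairs, 20 had deviations from the group means correlated over 0.1 (0.0531 to 0.852, median 0.473). Adjusted p-values are Benjamini-Hochberg over all genes tested, with a threshold of 0.05. The spread between rams was taken on log2 CPM with a pseudocount of 0.5. Code was tested on simulated data.

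Values per ram were given for each member called in a comparison and, in a comparison without calls, for the 2 members with the smallest p. Means were given for up to 4 members per comparison by p and for the member with the highest mean CPM of each role. NRP1, PLXNC1, SEMA5B, SEMA7A and PLXNA4 at single comparisons were named after their values were seen. Alternatives were DESeq2 1.42.0, limma-voom (limma 3.58.1), single libraries, no ram block, other scalings and filters, an adjusted p of at most 0.01 with a log2 fold change over 1, each genotype fitted on its own and leaving out each ram. Single libraries in DESeq2 were added after seeing the data. The members and gene lists were chosen with earlier results of these data known.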

Additional observations from a re-analysis of the deposited data

Results flagged for a closer look

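In 4 of 30 groups of 4 A/A rams, 1 for each of the 10 genes given per ram at each of the 3 positions, 1 ram lay far from the other 3, with a gap, as a share of the group's range, above Dixon's critical value. Chance alone flags about 1 in 20 groups. NRP2 was at 135 CPM at the mid-tail of ram 871784, against 56.5 to 69.6 CPM in the other A/A rams. EFNA2 was at 5.29 CPM at the mid-tail of ram 871772, against 2.76 to 3.18 CPM. SEMA3G was at 20.4 CPM at the tip of ram 835507, against 7.92 to 8.28 CPM, and this is the ram whose wool follicle markers were lowest at the tip. EPHB4 was at 47.7 CPM at the base of ram 871932, against 34.2 to 36.3 CPM.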

How the results depend on the processing

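The limits are the 4 A/A and 3 D/D rams of 1 breed, the low counts of EPHA5, EPHA6, EPHA8 and EPHA10, and calls near the threshold. At the tip over all rams, 2 guidance genes were called, against 5 with DESeq2 on ram sums, 10 with single libraries in edgeR and 10 in DESeq2 (7.69%, 12.2% and 14.3% of all genes), 1 with limma-voom, with library totals or with the filter at 1 CPM, 0 with the stricter thresholds and 0 to 4 without each ram. With no replicate block, that is without pairing by ram, 0 were called over all rams and 0 in A/A rams. In A/A rams at the tip, 2 became 5 with single libraries in DESeq2, 0 with the stricter thresholds or with each genotype fitted on its own, and 0 to 2 without each ram. In D/D rams at the tip, 0 became 2 and 4 with single libraries in edgeR and DESeq2, and 3 with each genotype fitted on its own. At the mid-tail over all rams, 0 became 1 and 3 with single libraries in edgeR and DESeq2. In A/A rams at the mid-tail, 0 became 1 with DESeq2 on ram sums and 2 with single libraries in either tool, and in D/D rams 1 with single libraries in DESeq2. The interactions, the tip against the mid-tail and the genotype comparisons stayed at 0 under all alternatives run, the library number as a replicate block included. Fewer rams were fitted when 1 was left out, and otherwise the cause was not tested. Of the 46 single-gene results recomputed under the alternatives, none changed sign, and the other genes named were not recomputed.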
